A study of Mus musculus with 48 samples.

Results

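The glucocorticoid system of the mouse brain was followed through 9 genes of the 48709 counted in each library. They are both corticosteroid receptors, Nr3c1 and Nr3c2, and 7 genes known to be induced by the activated receptor, namely Fkbp5, Sgk1, Tsc22d3, Plin4, Cdkn1a, Zbtb16 and Hif3a. The genes were chosen with the difference between both groups of an amyloid cross in view, so their values in that comparison are a description. No p is given there, and a gene that passed its thresholds is named as part of how the genes were chosen, not as support.

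Corticosterone, the stress hormone of the mouse, acts on the brain through a pair of related nuclear receptors. The mineralocorticoid receptor, encoded by Nr3c2, binds the hormone with high affinity and is abundant in the hippocampus, whereas the glucocorticoid receptor, encoded by Nr3c1, has lower affinity and is engaged when hormone rises with stress or with the time of day. Both wait in the cytoplasm in a complex of heat-shock proteins and co-chaperones, move to the nucleus when hormone binds, and raise the transcription of target genes from palindromic response elements.

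RNA-sequencing was performed on whole tissue from 46 mice with the strain label C57BL/6J, and 48 libraries were deposited because 2 mice were sequenced in 2 runs each. The methods give the mice as male. Dentate gyrus (DG) was taken from 5 Fmn2+/+ mice (wild type) and 5 Fmn2-/- mice (Fmn2 knock out) at 3 months of age and from 3 Fmn2+/+ and 5 Fmn2-/- mice at 8 months. Fmn2 encodes formin 2, a protein that nucleates actin filaments. In the amyloid cross, DG came from 16 mice of 3 months that all carried the APP transgene: 7 with the title letter W, whose genotype label reads FMN2-/-_APP, and 9 with the letter K, labelled FMN2 +/+ APP. A further 6 APP mice and 6 wild-type mice had titles that say PFC (prefrontal cortex), an age label of 4 months and a tissue label of DG. The study's APP mice are APPPS1-21 animals, whose transgenes, mutated human APP among them, are expressed in neurons from a Thy1 promoter and form amyloid plaques early, and no wild-type mouse without the transgene was part of the cross. The Fmn2-/- mice are labelled knock outs, and reads counted to Fmn2 remained in each of them (values below). Counts per gene do not show where on the gene these reads lie.

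The counts of Fmn2 went against the labels of the cross. Levels are given as CPM, read counts normalised to a common library size. Fmn2 had 84.2 to 103.7 CPM in the 7 W mice, close to the 75.5 to 113 of the Fmn2+/+ mice of both ages, and 19.2 to 24.2 in the 9 K mice, close to the 20.9 to 28.1 of the Fmn2-/- mice. The groups are therefore called W mice and K mice below, and each direction is given as W relative to K. By the Fmn2 counts this is the reverse of Fmn2-/- relative to Fmn2+/+, the direction given in the Fmn2 experiment. Libraries held between 6818809 and 43921030 reads on genes. The granule cell genes Prox1, C1ql2 and Dsp had mean levels of 13.7, 0.312 and 0.159 CPM in the wild-type mice with PFC titles, against 234, 35.9 and 147 CPM in Fmn2+/+ mice of 3 months, while the cortical layer gene Cux2 stood at 110 CPM against 20.5. The markers thus went with the titles and not with the tissue label, and these mice are called PFC mice. Summed choroid plexus markers, led by the transthyretin gene Ttr, were 9319 and 6073 CPM in K replicates 4 and 5 and 4282 CPM in 1 Fmn2-/- mouse of 3 months, against 43.4 to 395 in the other cross mice. W replicate 7 was the library with the lowest granule cell markers among the W mice (827 CPM) and the highest oligodendrocyte markers of the cross (3092 CPM). K replicates 8 and 9 had the highest summed astrocyte markers (6692 and 7375 CPM, against 4594 to 5626 in the other cross mice), and K replicate 8 the lowest interneuron markers (381 CPM, against 560 or more). In Fmn2-/- mice of 8 months, replicates 2 and 3 differed by a chi-square of 1.62 per degree of freedom, less than the 1.72 and 2.15 between repeat runs of 1 mouse, while other pairs of their group reached 3.50 or more. The statistic grows with depth, so these values are not on an equal footing. Both replicates are labelled as mice of their own and counted so (n = 5). Results of the group comparisons that changed when both were summed to 1 are given with that value. The co-variation between genes was not recomputed with the sum.

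Promoter windows were searched for the letters of the receptor's response element, without a measure of binding. The element is a palindrome of the hexamers AGAACA and TGTTCT with 3 free bases between them. In RefSeq windows from 250 bases before to 50 bases after each start (GRCm38.p6), 7 of the 9 genes had an entry, with 15 windows in all. A window of Sgk1 and one of Tsc22d3 are printed because they hold the hexamers, and that of Plin4 because this gene differed most between W and K mice and its window holds none. Capitals mark either hexamer on the strand shown. The Sgk1 window is chr10:21993640-21993939 on the plus strand, the Tsc22d3 window chrX:140600473-140600772 on the minus strand and the Plin4 window chr17:56109733-56110032 on the minus strand.
Sgk1: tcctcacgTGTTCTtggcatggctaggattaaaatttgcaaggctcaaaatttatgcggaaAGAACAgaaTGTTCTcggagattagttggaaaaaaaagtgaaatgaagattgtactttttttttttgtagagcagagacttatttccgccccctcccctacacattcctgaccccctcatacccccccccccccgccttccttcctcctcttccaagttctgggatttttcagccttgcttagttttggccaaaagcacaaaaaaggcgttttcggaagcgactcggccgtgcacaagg
Tsc22d3: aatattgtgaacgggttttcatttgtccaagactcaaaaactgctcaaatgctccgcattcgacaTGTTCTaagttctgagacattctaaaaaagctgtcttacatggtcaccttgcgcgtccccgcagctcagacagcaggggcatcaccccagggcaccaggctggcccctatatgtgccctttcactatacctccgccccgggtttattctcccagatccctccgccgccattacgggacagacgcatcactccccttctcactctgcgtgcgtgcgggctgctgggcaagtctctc
Plin4: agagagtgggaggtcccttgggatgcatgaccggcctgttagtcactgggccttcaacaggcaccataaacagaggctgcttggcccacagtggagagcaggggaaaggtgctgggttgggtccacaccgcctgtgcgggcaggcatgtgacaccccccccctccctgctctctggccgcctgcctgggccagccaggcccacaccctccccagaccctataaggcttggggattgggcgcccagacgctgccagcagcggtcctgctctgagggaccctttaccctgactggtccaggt
The printed Sgk1 window held an exact palindrome, with AGAACA beginning at position -189 and TGTTCT at -180 relative to the first transcribed base, and a further TGTTCT at -242. Tsc22d3 had a single TGTTCT at -185. At least 1 hexamer on either strand was present in 4 of the 15 windows (26.7%), in 4 of 26 windows (15.4%) of other glucocorticoid-induced genes and in 19% of all 32851 windows. Several of the 15 windows are alternative starts of Sgk1, and every window with a hexamer belonged to Sgk1 or Tsc22d3, so this share counts windows and not genes. A palindrome with at most 2 mismatches occurred in 2 of the 15 windows, both of Sgk1, in 3 of the 26 windows (11.5%) of the other induced genes and in 1.84% of all windows. The windows of Fkbp5, Plin4, Hif3a, Nr3c2 and Cdkn1a held neither hexamer, which says only that these letters are absent from these 300 bases.

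Transcripts of both receptors were found in every mouse, and their balance differed between tissues (see the plot of the 9 genes by mouse). Nr3c2 (ENSMUSG00000031618, chromosome 8, 76899442 to 77245012, mm10) had mean levels from 187 to 208 CPM in the 6 DG groups and of 34.7 ± 2.34 (SD, n = 6) and 32.3 ± 2.72 (SD, n = 6) CPM in APP and wild-type PFC mice. The lowest DG mouse, W replicate 7 at 112 CPM, still lay above the highest PFC mouse at 37.3. In whole tissue, a different number of expressing cells and a different amount of RNA in each cell cannot be told apart. Nr3c1 (ENSMUSG00000024431, chromosome 18, 39410545 to 39519421) varied much less, from 81.1 ± 13.9 (SD, n = 3) CPM in Fmn2+/+ mice of 8 months to 114 ± 11.8 (SD, n = 6) in wild-type PFC mice, and each group overlapped with its neighbours in this order.

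To compare both genes with each other, CPM were divided by exon length. Per length, the Nr3c2 level was 2.45 ± 0.405 (SD, n = 5) times that of Nr3c1 among the Fmn2+/+ mice of 3 months, and K mice stood at 2.33 ± 0.182 (SD, n = 9). In wild-type PFC mice the ratio was 0.337 ± 0.0181 (SD, n = 6) and in APP PFC mice 0.384 ± 0.0218 (SD, n = 6). The mineralocorticoid receptor transcript was thus the more abundant in all 34 DG mice, with a lowest ratio of 1.33 in W replicate 7, and the less abundant in all 12 PFC mice, with a highest ratio of 0.415. Since age, lane and experiment differ along with the tissue, these values are side by side and were not tested.

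**Figure D1:**
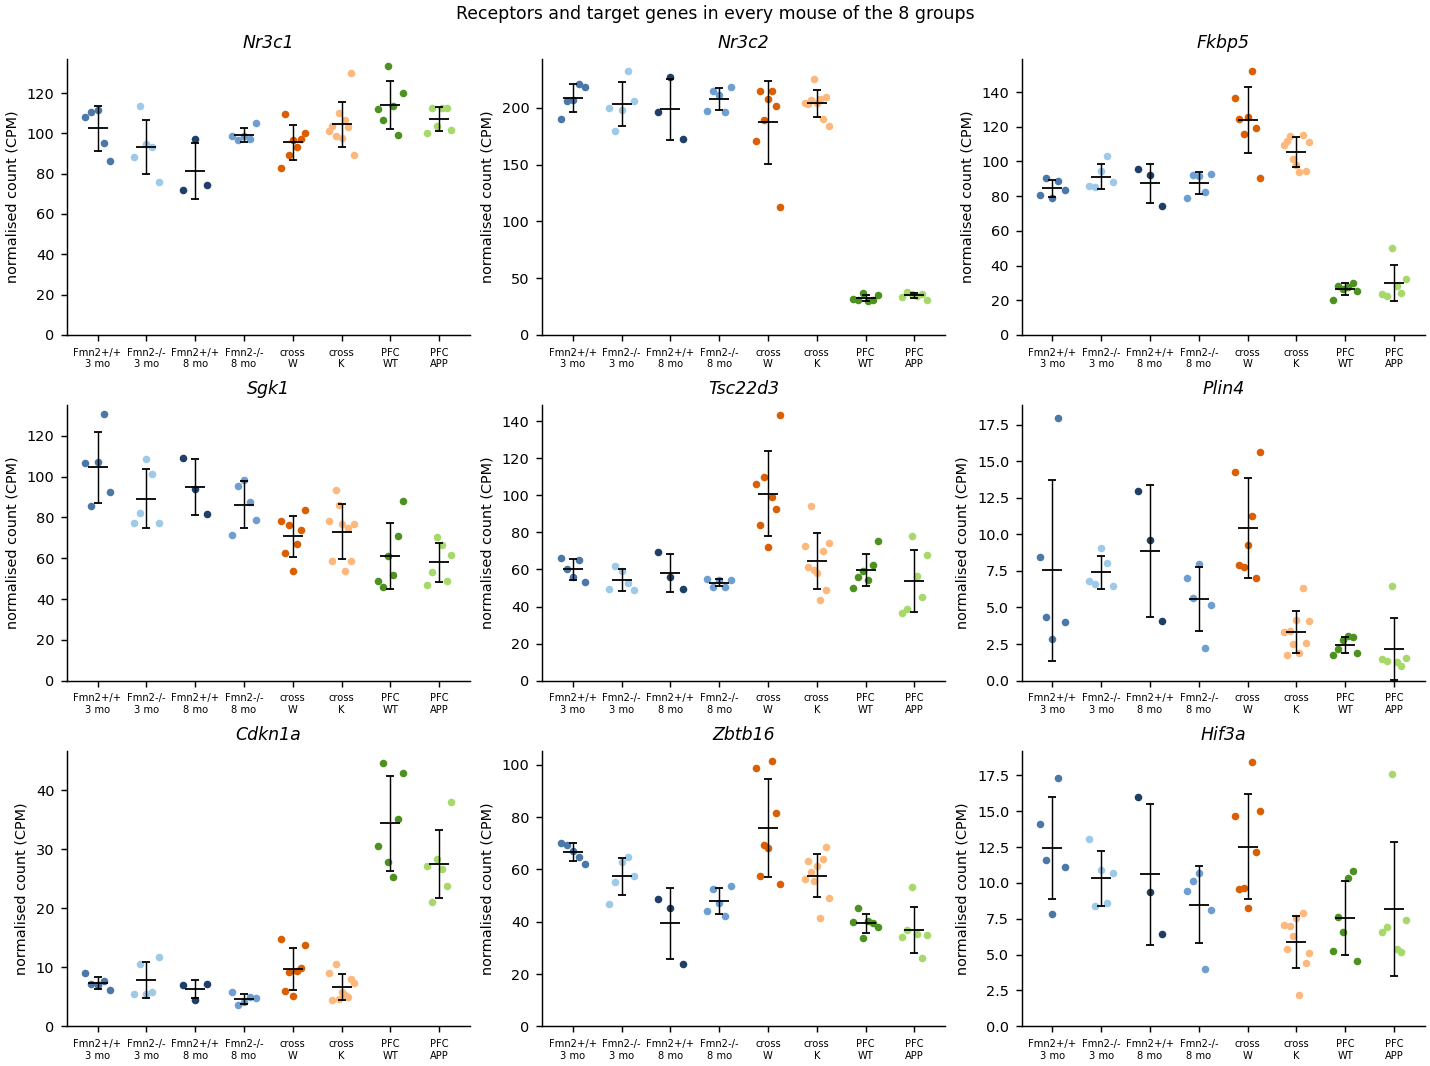
Normalised counts (CPM, linear axis from 0) of the 9 genes in each of the 46 mice, grouped on the horizontal axis by the 8 groups; points are mice, and the black bar and whiskers are mean and SD. Nr3c2 and Fkbp5 sit far lower and Cdkn1a higher in PFC mice, and Tsc22d3, Plin4 and Hif3a are higher in W than in K mice.

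**Figure D2:**
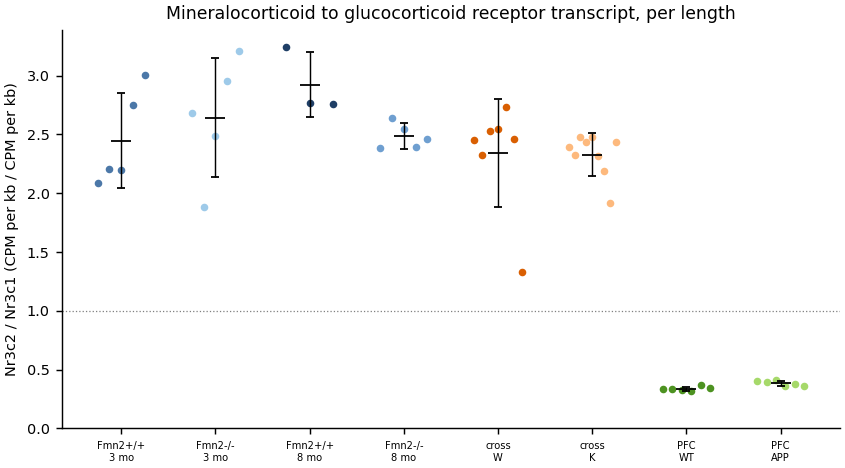
Ratio of Nr3c2 to Nr3c1 (each in CPM per kilobase of exon) in each mouse, with mean and SD as the black bar and whiskers; the dotted line marks equal levels. The 34 DG mice lie at 1.33 or above and the 12 PFC mice at 0.415 or below.

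Of the induced genes, Fkbp5 followed the tissue like Nr3c2. Fkbp5 (ENSMUSG00000024222, chromosome 17, 28399094 to 28517527) encodes FKBP51, a co-chaperone that lowers hormone binding by the glucocorticoid receptor and so closes a feedback loop. Its mean was 124 ± 19.0 (SD, n = 7) CPM in W mice, 105.6 ± 8.603 (SD, n = 9) in K mice, 84.5 to 91.3 in the 4 groups of the Fmn2 experiment and 26.3 to 30.1 in PFC mice. No mouse with a DG profile overlapped with the PFC mice, whereas W and K mice overlapped with each other. Cdkn1a (ENSMUSG00000023067, chromosome 17, 29090976 to 29100727), which encodes the cell cycle inhibitor p21, had the opposite order, with 34.4 ± 8.00 (SD, n = 6) CPM in wild-type PFC mice, 27.5 ± 5.79 (SD, n = 6) in APP PFC mice and means from 4.66 to 9.71 in DG groups. Sgk1 (ENSMUSG00000019970, chromosome 10, 21882184 to 21999903), a kinase that acts on ion channels and transporters, ran from 104.6 ± 17.5 (SD, n = 5) CPM in 3-month-old Fmn2+/+ mice down to 57.9 ± 9.75 (SD, n = 6) in APP PFC mice, and every neighbouring pair of groups in this order overlapped.

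The contrast that singled these genes out was that of W and K mice. Of the 9 genes, 6 were higher and 3 lower in W mice, and Plin4, Hif3a and Tsc22d3 passed the thresholds, an adjusted p under 0.05 by edgeR's quasi-likelihood test and a log2 fold change of 0.5 or more in either direction. Over all 16656 genes tested 51.72% were higher in W mice and 0.774% passed the thresholds. Nothing is read from these counts, since the contrast was used in the choice of genes. Across the 9 genes the median log2 fold change was 0.40, against 0.01 for all genes.

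Plin4 had the widest gap. Plin4 (ENSMUSG00000002831, chromosome 17, 56100591 to 56109803) encodes perilipin 4, a coat protein of lipid droplets. Its lowest, median and highest values were 7.003, 9.29 and 15.6 CPM in the 7 W mice and 1.78, 3.36 and 6.35 CPM in the 9 K mice. Every W mouse was above every K mouse, with a log2 fold change of 1.65 (standard error 0.25). The mean of W mice (10.4 CPM) lay above all 4 group means of the Fmn2 experiment (5.59 to 8.88 CPM). That of K mice (3.34 CPM) lay below them. Both were within the range of its single mice, 2.22 to 17.96 CPM.

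Hif3a likewise separated the groups without overlap. Hif3a (ENSMUSG00000004328, chromosome 7, 17031507 to 17062427) encodes a hypoxia-inducible factor subunit whose short forms restrain the other two. Its lowest, median and highest values were 8.28, 12.2 and 18.4 CPM in W mice and 2.22, 6.29 and 7.90 CPM in K mice. The log2 fold change was 1.09 (standard error 0.22), and K mice had the lowest mean of all 8 groups (5.88 CPM), next to 7.54 in wild-type PFC mice, with which they overlapped. Groups that do not overlap made up 0.498% of all genes tested in this comparison.

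Tsc22d3 was the third. Tsc22d3 (ENSMUSG00000031431, chromosome X, 140539528 to 140600659) encodes GILZ, a leucine zipper protein that mediates anti-inflammatory effects of the hormone. Its lowest, median and highest values were 71.97, 99.1 and 144 CPM in W mice and 43.3, 61.2 and 94.1 CPM in K mice, so the groups overlapped. The log2 fold change was 0.64 (standard error 0.15). W mice had the highest mean of all groups (100.98 ± 22.9 CPM, SD, n = 7), and the other 7 groups had means between 52.9 and 64.7 CPM. Levels of different experiments are side by side and were not tested. Summed oligodendrocyte markers had medians of 2014 and 1624 CPM in W and K mice, against 2511 to 3169 in the Fmn2 groups. For markers of hippocampal CA pyramidal cells these were 276 and 294 against 389 to 566 CPM, though their genes Spink8 and Fibcd1 were higher in the cross.

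The other members differed less. Cdkn1a had a log2 fold change of 0.54 (standard error 0.23), Zbtb16 of 0.40 (0.13) and Fkbp5 of 0.23 (0.083), each higher in W mice and none past the thresholds. Zbtb16 (ENSMUSG00000066687, chromosome 9, 48654297 to 48836222), which encodes the transcriptional repressor PLZF, ran from 54.3 over a median of 69.2 to 101.6 CPM in W mice and from 41.5 over 59 to 68.4 CPM in K mice. Sgk1 (-0.05, standard error 0.12) and both receptors, Nr3c1 (-0.13, 0.070) and Nr3c2 (-0.12, 0.10), were the 3 genes with lower levels in W mice. The sign of Sgk1 changed without W replicate 4 (0.0085).

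The lanes of the sequencer held both groups, so the difference was also taken within lanes, as mean log2 CPM of W minus K. For Plin4 it was 1.78 on lane 5 (3 mice each), 1.72 on lane 6 (3 mice each) and 1.92 on lane 7 (1 W mouse, W replicate 7, and 3 K mice). W replicate 7 and K replicate 7 were each run on a pair of lanes and are counted on lane 7. Hif3a gave 0.78, 1.36 and 1.40 and Tsc22d3 0.41, 0.71 and 1.18 on these lanes. These signs were the same on every lane, whereas Fkbp5 (0.17, 0.43 and -0.24) and Zbtb16 (0.31, 0.67 and -0.14) had the other sign on lane 7, where W replicate 7 was the only W mouse. With single mice left out Tsc22d3 passed the thresholds in 4 of 16 fits, so its place among the 3 genes depended on single mice. Without W replicate 7 and K replicates 4 and 5 together, Plin4 alone passed, with log2 fold changes of 1.52 for Plin4, 1.11 for Hif3a and 0.50 for Tsc22d3. Without K replicates 8 and 9 together, Plin4 (1.65) and Hif3a (1.02) passed and Tsc22d3 (0.63) did not. Both choices were made after these libraries had been seen.

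Markers of other cells moved along with the groups. Over all genes tested 51.72% were higher in W mice, with a median of 0.01, and 0.774% passed the thresholds. Of 7 granule cell markers 6 were higher in W mice (median 0.04; 827 to 1335 CPM in W and 703 to 1144 in K mice), and C1ql2, the 1 marker of these cell type lists past the thresholds, had means of 98.4 and 65.1 CPM. Interneuron markers were higher in 5 of 5 cases (median 0.09; 560 to 863 and 381 to 786 CPM), and astrocyte markers in 5 of 7 (median 0.07; 4594 to 5626 and 4739 to 7375 CPM), with Gfap lower in W mice (-1.11, standard error 0.30; 512 and 1098 CPM). Of 9 oligodendrocyte markers 8 were higher in W mice, with a median log2 fold change of 0.34, none of them past the thresholds. Their summed level was 1741 to 3092 CPM in W mice and 1308 to 2046 in K mice. Endothelial markers went the other way, with 8 of 9 lower in W mice (median -0.21; 181 to 355 CPM in W and 213 to 318 in K mice), and 5 of 6 microglial markers were lower (median -0.13; 271 to 416 and 294 to 415 CPM). All 7 choroid plexus markers were lower in W mice (median -2.89), with 50.04 to 121 CPM in W mice and 43.4 to 9319 in K mice, and the median was -0.32 without W replicate 7 and K replicates 4 and 5. The part of these cells in the differences of Plin4, Hif3a and Tsc22d3 was not tested.

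**Figure D3:**
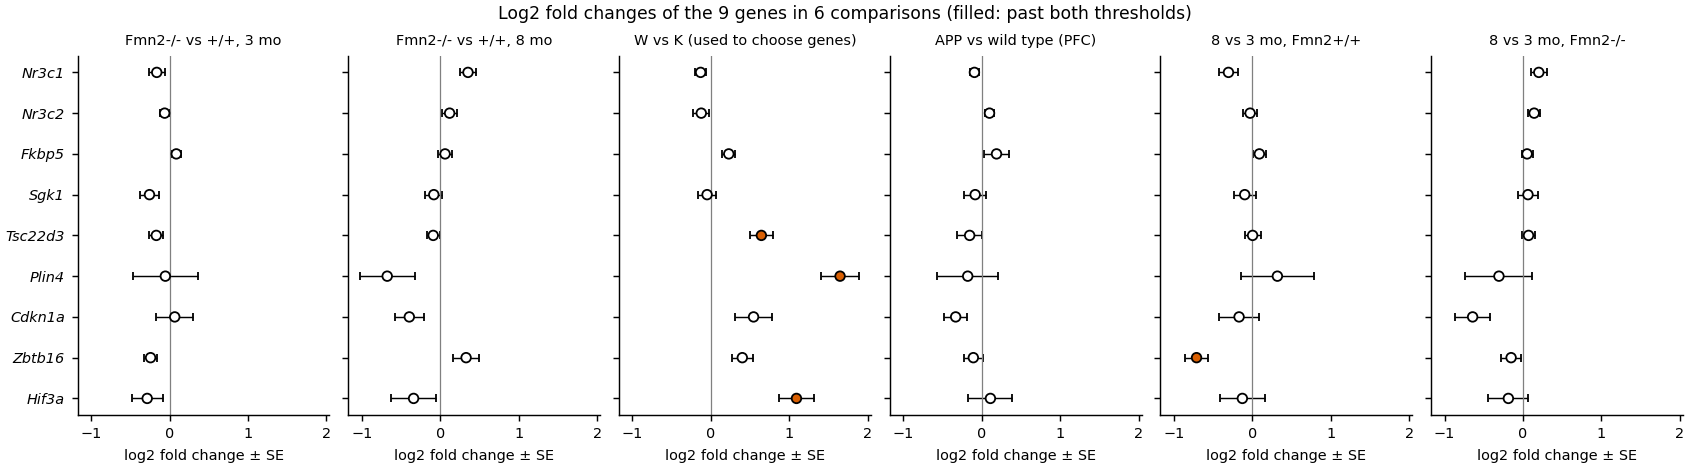
Log2 fold changes of the 9 genes with standard errors (horizontal axis) in 6 comparisons, with filled points for genes past both thresholds. Plin4 (1.65), Hif3a (1.09) and Tsc22d3 (0.64) are filled for W against K mice, the contrast used to choose the genes, and Zbtb16 (-0.71) is filled for 8 against 3 months in Fmn2+/+ mice. By the Fmn2 counts, W against K has the reverse direction of Fmn2-/- against Fmn2+/+.

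A list of 24 other glucocorticoid-induced genes had 23 members tested in the cross. It was drawn up from textbook knowledge, but with earlier results of these data known. Of these 16 were higher and 7 lower in W mice, with a median log2 fold change of 0.21, and 3 passed the thresholds, all upwards. Over all genes tested 51.72% were higher, the median was 0.01, and 0.774% passed, 0.438% upwards. They were Mfsd2a (0.80, standard error 0.11), a lysophosphatidylcholine transporter of the blood-brain barrier, Mertk (0.64, 0.084), a receptor for the clearance of dying cells, and Fam107a (0.62, 0.092), an actin-binding protein. Mean levels in W and K mice were 49.98 and 28.8 CPM for Mfsd2a, 57.03 and 36.7 CPM for Mertk and 491 and 319 CPM for Fam107a. These 3 genes also passed without W replicate 7 and K replicates 4 and 5. At the other end lay Dusp1, a phosphatase of MAP kinases (-0.32, standard error 0.16), and Txnip (-0.29, 0.20). Since this is the contrast of the choice, the list too is a description.

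Of 12 tested genes of the receptor machinery (chaperones, corticosterone-converting enzymes and co-regulators), 11 were higher in W mice (median 0.12) and none passed the thresholds. Beside this list and those that follow, 51.72% of all genes were higher and 0.774% passed. The smallest p was that of Stip1, which links the heat-shock proteins HSP70 and HSP90 (0.31, standard error 0.085). Among 4 genes of the corticotropin-releasing hormone system, the receptor gene Crhr2 was lower in W mice (-0.88, standard error 0.21; 2.61 in W and 4.80 CPM in K mice) and passed, but no gene of this list passed without W replicate 7 and K replicates 4 and 5. Clock genes had 5 of 12 higher (median -0.05), led by Per2 (0.49, 0.17) and Cry1 (0.28, 0.10), and immediate early genes 2 of 7 higher (median -0.08), led by Nr4a1 (-0.15, 0.23) and Fos (-0.28, 0.44), and in both lists no gene passed.

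**Figure D4:**
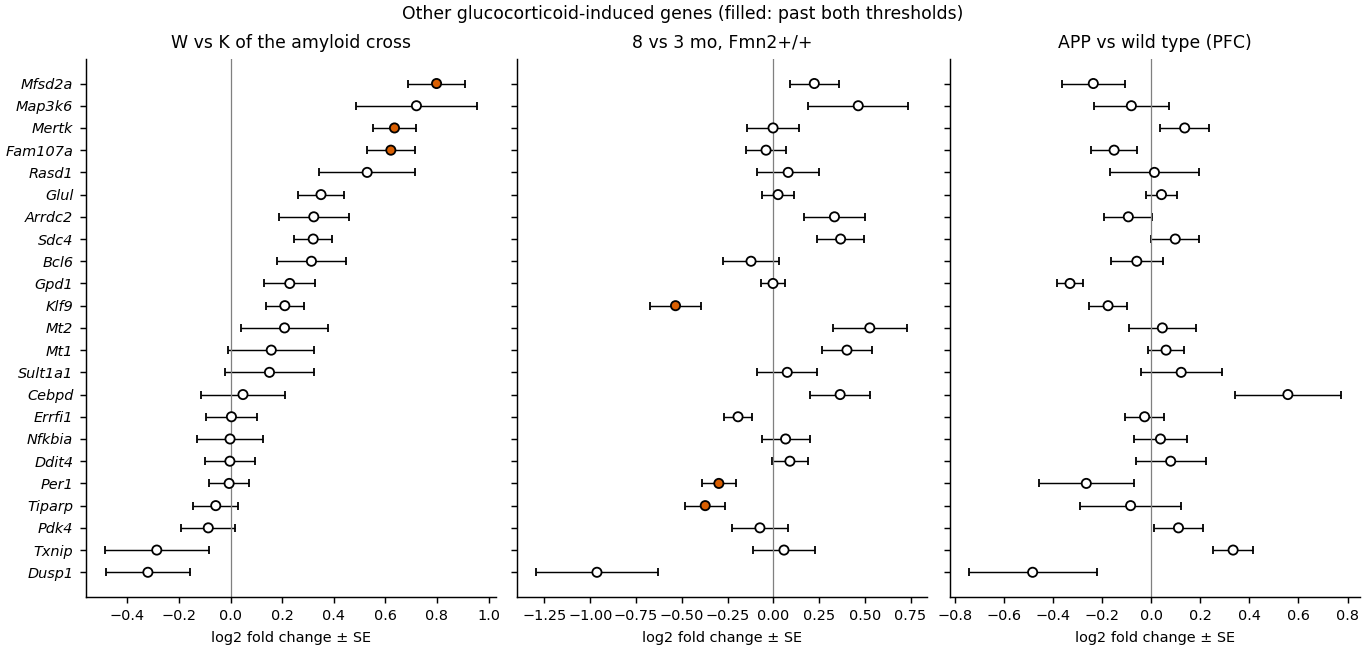
Log2 fold changes with standard errors of the other glucocorticoid-induced genes in the cross, between ages in Fmn2+/+ mice and between APP and wild-type PFC mice, in the order of the cross, with filled points for genes past both thresholds. Mfsd2a, Mertk and Fam107a are filled in the cross, and Klf9, Per1 and Tiparp lie below 0 and are filled for age.

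Loss of Fmn2 alone was examined in both ages of the other DG experiment, whose mice carry no APP transgene. At 3 months none of the 9 genes passed edgeR's quasi-likelihood test (0.0301% of 16630 genes did, with 0.25 as the log2 minimum), DESeq2 called none either, and 1 had an unadjusted p under 0.05. That gene was Zbtb16, with values of 62.2, 64.8, 67.1, 69.4 and 70.3 CPM in Fmn2+/+ mice and 46.8, 55.3, 57.4, 63.02 and 64.7 CPM in Fmn2-/- mice. The ranges overlapped, and the log2 fold change was -0.24 (standard error 0.078, adjusted p = 0.317 by edgeR). Log2 fold changes of the members ran from -0.29 (Hif3a) to 0.09 (Fkbp5), 7 of them negative and 2 positive, with a median of -0.16. Over all genes 51.07% were positive. Plin4 (-0.05, standard error 0.41) and Hif3a (-0.29, 0.20), which separated W and K mice, overlapped here, and so did the other members, while 2.97% of all genes had groups without overlap. Signs here are Fmn2-/- relative to Fmn2+/+, by the Fmn2 counts the reverse of W relative to K. All Fmn2+/+ mice were run on lane 5 and 4 of 5 Fmn2-/- mice on lane 6, so lane and genotype can hardly be told apart, and the 1 Fmn2-/- mouse on lane 5 had -0.51 log2 units of Zbtb16 relative to the Fmn2+/+ mean.

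At 8 months edgeR again called none of the 9 genes (1.13% of 14665 genes), 1 had an unadjusted p under 0.05, and DESeq2 called 1 (733 genes in all, against 166 by edgeR). That was Nr3c1 in both cases. Its values were 72.04, 97.1 and 74.2 CPM in the 3 Fmn2+/+ mice and 98.4, 96.5, 98.5, 97.4 and 105.1 CPM in the 5 Fmn2-/- mice. A single Fmn2+/+ mouse, replicate 2, fell among the Fmn2-/- mice and the other 2 lay below them. The log2 fold change was 0.35 (standard error 0.11), with adjusted p = 0.0986 by edgeR's quasi-likelihood test and 0.0436 by DESeq2. Without replicate 2 of the Fmn2+/+ mice, edgeR called Nr3c1 (0.53, adjusted p = 0.00109) and Nr3c2 (0.25, adjusted p = 0.0240), but in that fit 3087 genes passed instead of 166, and only 2 Fmn2+/+ mice were left. On lane 7 alone (2 Fmn2+/+ and 5 Fmn2-/- mice) the difference of Nr3c1 was 0.22 log2 units. Plin4 was 0.68 lower (-0.68, standard error 0.35, adjusted p = 0.263 by edgeR), with a mean going from 8.88 ± 4.50 CPM (Fmn2+/+, SD, n = 3) to 5.59 ± 2.18 CPM (Fmn2-/-, SD, n = 5). The other 7 members lay between -0.39 (Cdkn1a) and 0.33 (Zbtb16), with Fkbp5 at 0.06. No member had groups without overlap, against 11.1% of all genes.

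Among the other induced genes, edgeR called none at 3 months, when Klf9 (-0.25, standard error 0.073, adjusted p = 0.278) and Per1 (-0.22, 0.065, adjusted p = 0.278) had the smallest p. At 8 months 1 of 23 passed, Cebpd (-0.57, standard error 0.12, adjusted p = 0.0469 by edgeR, and 0.108 with Fmn2-/- replicates 2 and 3 summed), a transcription factor of the acute phase, with 8.5 CPM in Fmn2-/- and 12.9 in Fmn2+/+ mice. Of the list 10 were higher and 13 lower at 3 months (median -0.02) and 7 higher and 16 lower at 8 months (median -0.11), beside medians of 0.00 and 0.01 over all genes. The share of all genes that were higher was 51.07% at 3 months and 51.19% at 8 months. No gene of the receptor machinery passed at either age, with Ptges3 at 0.26 (adjusted p = 0.298 by edgeR) and Ncor1 at -0.18 (adjusted p = 0.324) at 3 months, and Hsd11b1, which regenerates active corticosterone, at -0.27 (adjusted p = 0.124) at 8 months. Oligodendrocyte markers were lower in Fmn2-/- mice in 9 of 9 cases at 8 months (median -0.26, none called, 1945 to 2748 against 2803 to 3321 CPM), and their part in the values of Plin4 was not tested.

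With age, Zbtb16 fell in Fmn2+/+ mice. Its values were 48.8, 45.3 and 23.97 CPM in the 3 mice of 8 months, all below the 62.2 to 70.3 CPM of the 5 mice of 3 months. The log2 fold change was -0.71 (standard error 0.15, adjusted p = 0.00573 by edgeR's quasi-likelihood test) and stayed past the thresholds with any single mouse left out, at -0.49 (adjusted p = 0.0250) without the lowest one, Fmn2+/+ replicate 3. No other member was called (9.21% of 17046 genes were) or had ages without overlap (15.4% of genes had), and the other 8 lay between -0.30 (Nr3c1) and 0.32 (Plin4). In Fmn2-/- mice the change of Zbtb16 was -0.15 (standard error 0.13, adjusted p = 0.529), from 57.4 ± 7.12 (SD, n = 5) to 47.9 ± 5.06 (SD, n = 5) CPM. The difference between both genotypes, tested as an interaction, was 0.56 (standard error 0.19, adjusted p = 0.0969 by edgeR), so it missed the threshold there and passed it with DESeq2 (0.58, adjusted p = 0.0400).

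Nr3c1 had a similar crossing pattern, with -0.30 (standard error 0.12, adjusted p = 0.112) in Fmn2+/+ and 0.20 (0.10, adjusted p = 0.261) in Fmn2-/- mice from 3 to 8 months. Its interaction of 0.51 (standard error 0.16) had adjusted p = 0.0735 by edgeR and 0.0311 by DESeq2. No member passed the interaction test with edgeR, where 2 had an unadjusted p under 0.05 and 3.73% of genes passed. DESeq2 called both of these members, and 1401 genes in all, against 635 by edgeR. In ageing Fmn2-/- mice no member passed either (6.44% of genes did, and 13.2% had groups without overlap, with no member among them). The 1 gene there with an unadjusted p under 0.05 was Cdkn1a, at 7.84 ± 3.11 (SD, n = 5) CPM at 3 and 4.66 ± 0.853 (SD, n = 5) CPM at 8 months (-0.64, standard error 0.23, adjusted p = 0.0873 by edgeR and 0.0389 by DESeq2). In this comparison DESeq2 called 1225 genes in all, against 1097 by edgeR. Age is tied to sequencing lane and depth in these libraries, and the part of each cannot be told apart.

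The other genes of the pathway were also compared between ages. Of 23 other induced genes 3 passed in Fmn2+/+ mice (beside 9.21% of all genes), all downwards, namely the Krüppel-like factor Klf9 (-0.53, standard error 0.14, adjusted p = 0.0198 by edgeR), Tiparp (-0.37, 0.11, adjusted p = 0.0345) and the clock gene Per1 (-0.30, 0.092, adjusted p = 0.0448), while 13 were higher in all (median 0.06). In Fmn2-/- mice 1 of 23 passed (beside 6.44% of all genes). The share of all genes that were higher at 8 months was 52.23% in Fmn2+/+ and 48.47% in Fmn2-/- mice. Of the receptor machinery Ptges3, the HSP90 co-chaperone p23, rose (0.63, standard error 0.083, adjusted p = 2.09e-04 by edgeR), and the co-repressor Ncor1 (-0.46, adjusted p = 0.00350) and the co-activator Ncoa3 (-0.30, adjusted p = 0.0287) fell. In Fmn2-/- mice the sulfotransferase gene Sult1a1 (-0.54, adjusted p = 0.0287 by edgeR) and Stip1 (-0.36, adjusted p = 0.00282) fell, and Ptges3 was called in the interaction (-0.41, adjusted p = 0.0462 by edgeR, and 0.0856 with Fmn2-/- replicates 2 and 3 of 8 months summed). Immediate early genes, which follow neuronal activity before death, moved in the same comparison: all 7 were lower at 8 months in Fmn2+/+ mice and 5 passed, with Fos at -2.01 (standard error 0.59, adjusted p = 0.0366 by edgeR) and Npas4 at -1.73 (0.47, adjusted p = 0.0247). In Fmn2-/- mice all 7 were lower at 8 months as well (median -0.90, against -1.35 in Fmn2+/+ mice) and 2 passed, and at 3 months all 7 were lower in Fmn2-/- than in Fmn2+/+ mice (median -0.22, none called). Of clock genes Nr1d1 passed (-0.38, adjusted p = 0.0264 by edgeR). Whether these shifts bear on that of Zbtb16 was not tested.

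In PFC mice the APP transgene was compared with wild type, and edgeR called none of the 9 genes (2.34% of 16733 genes, with 0.5 as the log2 minimum). DESeq2 called none, and 1 gene, Cdkn1a, had an unadjusted p under 0.05 (-0.33, standard error 0.14, adjusted p = 0.288 by edgeR). Plin4 ran from 0.976 over a median of 1.40 to 6.44 CPM in APP mice and from 1.78 over 2.46 to 3.07 CPM in wild-type mice. In this gene 5 of 6 APP mice lay below all wild-type mice, and the sixth, APP replicate 3, above all of them. The log2 fold change was -0.18 (standard error 0.39, adjusted p = 0.906 by edgeR) with this mouse and -0.89 (adjusted p = 0.00821) without it, and it was then the single member called. The other members lay between -0.15 (Tsc22d3) and 0.19 (Fkbp5). All 9 members overlapped between the groups, beside 3.33% of genes that did not. Lane coincided with genotype here, so they cannot be told apart, and oligodendrocyte markers were lower in APP mice in 9 of 9 cases (median -0.78, 1 of them called; 1370 to 2128 against 2206 to 6262 CPM). Microglial markers were higher in 6 of 6 cases (median 0.69, 5 called; 457 to 596 against 284 to 307 CPM), and the part of either in these values was not tested.

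Of the other induced genes 12 were higher and 11 lower in APP mice (median 0.01) and none passed both thresholds. Over all genes 49.79% were higher in APP mice. Gpd1, glycerol-3-phosphate dehydrogenase, had adjusted p = 4.33e-04 and Txnip adjusted p = 0.0245 by edgeR, at log2 fold changes of -0.33 and 0.33 that are under the minimum of 0.5. Among the receptor machinery 11 of 12 were lower (median -0.03), led by Ncoa3 (-0.12, adjusted p = 0.323 by edgeR). All 7 immediate early genes were lower in APP mice (median -0.52), none past the test, with Egr1 at -0.55 (standard error 0.22, adjusted p = 0.241 by edgeR).

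Whether the genes moved together from mouse to mouse was asked within groups, where the group difference does not enter. A relation does not show its source, which was not tested. For each gene, log2 CPM were centred on the group mean and correlated with those of Fkbp5 over the 18 Fmn2 mice, the 16 cross mice and the 12 PFC mice, which makes 24 relations. In the Fmn2 experiment Zbtb16 (Pearson's r = 0.80, permutation p = 0.00144, adjusted p = 0.0313; Spearman's rho = 0.79, permutation p = 0.00157, adjusted p = 0.0377) and Nr3c2 (r = 0.75, permutation p = 0.00391, adjusted p = 0.0313; rho = 0.73, permutation p = 0.00431, adjusted p = 0.0386) followed Fkbp5. Without the 2 mice farthest from the median of Fkbp5, r was 0.66 for Zbtb16 and 0.63 for Nr3c2, and centred within lanes 0.75 and 0.83. Plin4 (r = 0.50), Hif3a (0.45), Tsc22d3 (0.38) and Sgk1 (0.56) were positive and Cdkn1a (-0.45) negative in these mice, and none of them passed the permutation test after adjustment.

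In PFC mice Plin4 followed Fkbp5 by Pearson's r (0.87, permutation p = 0.00579, adjusted p = 0.0347) and by Spearman's rho (0.78, permutation p = 0.00482, adjusted p = 0.0386). Tsc22d3 passed by r (0.82, permutation p = 0.00328, adjusted p = 0.0313) and missed the threshold by rho (0.76, permutation p = 0.0109, adjusted p = 0.0524). So did Hif3a (r = 0.81, permutation p = 0.00827, adjusted p = 0.0397, and rho = 0.73, permutation p = 0.0106, adjusted p = 0.0524). APP replicate 3 was the highest APP mouse in Fkbp5 (49.99 CPM), Tsc22d3 (78.2), Plin4 (6.44), Zbtb16 (53.2) and Hif3a (17.6). Without it r fell to 0.71 for Tsc22d3, 0.56 for Plin4 and 0.51 for Hif3a, and without the 2 mice farthest from the median of Fkbp5 to 0.71, 0.36 and 0.37. The relations of Plin4 and Hif3a thus rested largely on few mice, and that of Tsc22d3 less so.

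In the cross no relation passed after adjustment, and the largest was that of Zbtb16 (r = 0.62, permutation p = 0.0205, adjusted p = 0.0818, and rho = 0.58, permutation p = 0.0294, adjusted p = 0.118). For Zbtb16 r was 0.49 without W replicate 7, and other relations depended more on this mouse. It had the lowest Fkbp5 (90.5 CPM) and Nr3c2 (112 CPM) and the highest Tsc22d3 (144 CPM) and Plin4 (15.6 CPM) of the W mice. Without it, a choice made after its values had been seen, r went from 0.04 to 0.60 for Tsc22d3, from 0.11 to 0.54 for Plin4, from 0.33 to 0.66 for Hif3a and from 0.58 to -0.19 for Nr3c2. Centred within lanes, which takes this mouse out as the only W mouse of its lane, r was 0.53 for Tsc22d3, 0.68 for Plin4, 0.62 for Hif3a and 0.39 for Zbtb16. Nr3c1 was negative throughout the cross (r = -0.41, and -0.44 without W replicate 7).

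**Figure D5:**
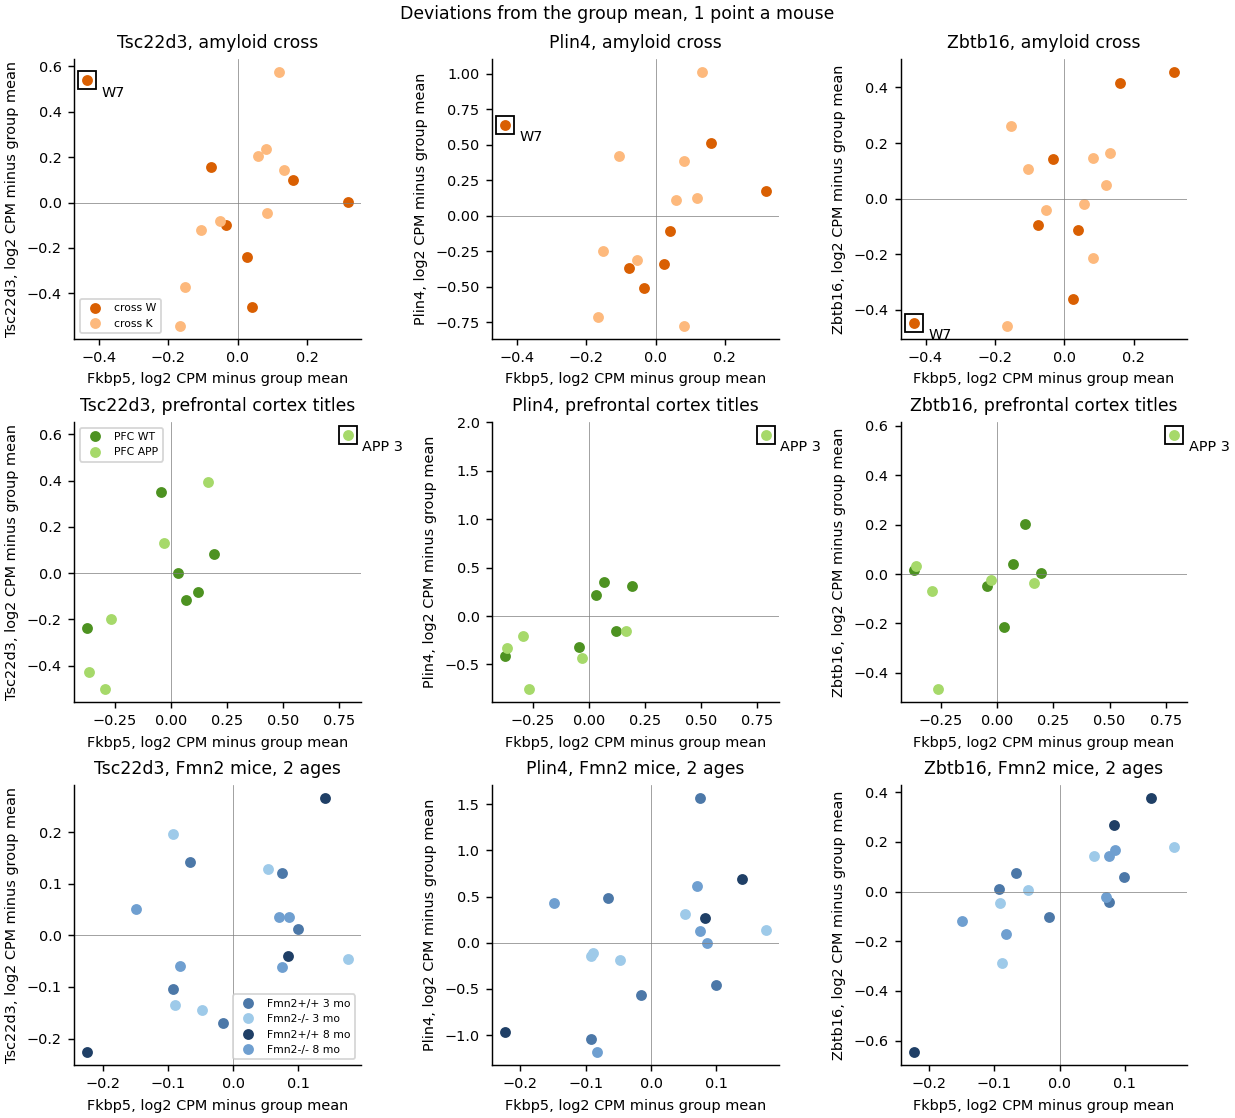
Deviation of Tsc22d3, Plin4 and Zbtb16 from the group mean (vertical axes, log2 CPM) against that of Fkbp5 (horizontal axes, log2 CPM) in the cross, the PFC mice and the Fmn2 mice; each point is a mouse, and squares mark W replicate 7 and APP replicate 3. W replicate 7 lies apart at low Fkbp5, APP replicate 3 lies at the upper right of all 3 PFC panels, and Zbtb16 follows Fkbp5 among the Fmn2 mice (r = 0.80).

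By the same measure over the 16 cross mice, the genes most like Fkbp5 among 16656 were Rapgef5 (r = 0.85), Antxr2 (0.85), Mcc (0.84), Ksr1 (0.83) and Spata2l (0.78). Without W replicate 7 their r was 0.68, 0.69, 0.72, 0.63 and 0.50, and the leading genes were Pced1a (0.80), Adpgk (0.74), Rab4b (0.74), Rrp8 (0.74) and Nhlh2 (0.73). None of the 5 leading genes was the same in both orders. By r over all 16 cross mice, Zbtb16 ranked 168, Nr3c2 294 and Hif3a 2187 among the 16656 genes. The other members ranked between 6118 (Plin4) and 15214 (Nr3c1). The share of all genes as close to Fkbp5 as the members was not taken in the Fmn2 and PFC mice.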

How the data were processed

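RNA was isolated with TRIZOL from whole tissue and sequenced from TruSeq libraries. The authors aligned reads to mm10 with STAR and made the deposited values, raw read counts per gene, with HTSeq, without normalization. The annotation release and the strand setting are not given in the sources used here. Gene symbols, positions and exon lengths were taken from GENCODE M21 for 48349 of 48709 genes, and all 9 members matched and passed the filter in every comparison.

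Repeat runs of 2 mice were summed, which left 46 mice. Levels are CPM after TMM scaling over all mice. Each comparison was fitted on the mice of its groups with edgeR 4.0.16 (filterByExpr, TMM, quasi-likelihood test, Benjamini-Hochberg adjustment over all genes tested) in R 4.3.3, and the age and interaction tests on all 18 Fmn2 mice. DESeq2 1.42.0 (the study used an older release), other scaling, no filter, left-out mice, replicate block, lane, and length and GC correction were the alternatives. Fits were tested on simulated counts. Log2 CPM used a prior count of 2, and co-variation was tested two-sided with 100000 permutations of mice within groups.

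The members and gene lists were chosen with earlier results of these data known. All members were named in each comparison, and of each list up to 4 called genes with the largest change or, with none called, the 2 with the smallest p. Dusp1 and Txnip in the cross were named after their values were seen. Some genes the rule would name are not reported here. The labels do not say from how many litters the mice came. Replicates 2 and 3 of the Fmn2-/- mice of 8 months, which were about as close as repeat runs, were also summed as an alternative in the group comparisons, not in the co-variation. Depth, 6818809 to 43921030 reads, limits Plin4, Cdkn1a and Hif3a most, the genes of lowest count.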

Additional observations from a re-analysis of the deposited data

Results flagged for a closer look

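Of 63 sets of values (a gene in a group of 4 to 10 mice), 5 had a mouse far from the others by Dixon's criterion at the 95% level, which chance alone reaches in about 1 in 20 sets. APP replicate 3 of the PFC mice accounted for 3 of them, with 49.99 CPM of Fkbp5 (next 32.4), 6.44 CPM of Plin4 (next 1.53) and 17.6 CPM of Hif3a (next 7.40). W replicate 7 had 112 CPM of Nr3c2, next to 171. Fmn2-/- replicate 5 of 8 months had 105.1 CPM of Nr3c1, with the other 4 mice of its group between 96.5 and 98.5 CPM.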

How the results depend on the processing

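The number of members called stayed within 1.5 times of its value in 137 refits and moved in 11. At 8 months it rose from 0 to 1 with DESeq2 and to 2 without a filter on low counts (Nr3c1 and Plin4), in ageing Fmn2-/- mice from 0 to 1 and in the interaction from 0 to 2 with DESeq2, and in the cross it fell from 3 to 1 without W replicate 7 and K replicates 4 and 5. Leaving out 1 mouse at a time gave 0 members at 3 months, 0 to 2 at 8 months, 2 to 3 in the cross, 0 to 1 in PFC mice, 1 to 2 and 0 to 1 with age in Fmn2+/+ and Fmn2-/- mice, and 0 to 3 in the interaction. Fmn2+/+ replicate 2 of 8 months mattered most: without it Nr3c1 was called with age in Fmn2+/+ mice (-0.48, adjusted p = 0.0132 by edgeR) and Nr3c1, Nr3c2 and Zbtb16 in the interaction (0.68, 0.31 and 0.68). Without Fmn2-/- replicate 1 of 3 months Cdkn1a was called in ageing Fmn2-/- mice (-0.75, adjusted p = 0.0470 by edgeR), and without replicate 2 Nr3c1 in the interaction (0.61, adjusted p = 0.0388 by edgeR). Over all genes, the alternatives other than single mice called 2 to 91 genes at 3 months (5 as reported), 3 to 1124 at 8 months (166), 48 to 304 in the cross (129), 368 to 637 in PFC mice (392) and 227 to 1401 in the interaction (635). With Fmn2-/- replicates 2 and 3 of 8 months summed, no member was called, and over all genes 5 were at 8 months, 803 with age in Fmn2-/- mice (1097) and 227 in the interaction. Leaving out 1 mouse at a time gave 3 to 49 genes at 3 months (49 without Fmn2-/- replicate 1), 73 to 171 in the cross, 365 to 418 in PFC mice, 746 to 1239 with age in Fmn2-/- mice and, at both ends through Fmn2+/+ mice of 8 months, 4 to 3087 at 8 months (without replicates 1 and 2, and 4 to 10 without any 1 Fmn2-/- mouse), 469 to 2994 with age in Fmn2+/+ mice (replicates 3 and 2) and 8 to 2791 in the interaction (replicates 1 and 2), so the shares over all genes beside the members' counts carry this uncertainty. The cause of these changes was not tested.

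Same-numbered mice did not deviate together on average (mean r of 0.0518 at 3 months, -0.0353 at 8 months, 0.0686 in the cross and 0.00503 in PFC mice). With 3 to 7 pairs, and single values from -0.292 to 0.273 in the cross, this cannot show whether the numbers pair the mice. With the replicate block, on mice whose number occurs in both groups, 0 members were called at 3 and 8 months and in PFC mice and 3 in the cross, and over all genes 2, 4, 383 and 111 were called at 3 months, at 8 months, in PFC mice and in the cross.

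Log2 fold changes that changed sign belonged to members that were called in none of the fits concerned. At 3 months the block gave 0.0061 for Plin4 and -0.21 for Cdkn1a (-0.24 with length and GC correction), and lane as a covariate -0.45 for Cdkn1a and 0.065 for Hif3a. At 8 months Hif3a was 0.027 with the block (0.0034 with length and GC correction), and 0.13 with lane, Tsc22d3 was 0.023 with lane, and Fkbp5 -0.0034 with length and GC correction. Tsc22d3 with age in Fmn2+/+ mice was -0.012 with DESeq2, -0.010 with RLE factors and -0.0098 without the filter, and the interaction of Hif3a was 0.014 with DESeq2. With single mice left out, log2 fold changes spanned -0.28 to 0.58 (Plin4) and -0.14 to 0.17 (Cdkn1a) at 3 months, -0.026 to 0.12 (Fkbp5), -0.18 to 0.023 (Tsc22d3) and -0.59 to 0.13 (Hif3a) at 8 months, and -0.016 to 0.26 (Fkbp5), -0.16 to 0.050 (Sgk1) and -0.26 to 0.25 (Hif3a) in PFC mice. With age they spanned -0.16 to 0.035 (Nr3c2), -0.11 to 0.079 (Tsc22d3), -0.093 to 0.94 (Plin4) and -0.59 to 0.089 (Hif3a) in Fmn2+/+ mice and -0.29 to 0.0051 (Hif3a) in Fmn2-/- mice, and in the interaction -0.11 to 0.031 (Fkbp5), -0.0056 to 0.18 (Tsc22d3) and -0.27 to 0.40 (Hif3a). In the cross Sgk1 spanned -0.10 to 0.0085 with single mice left out. RLE factors moved the rank of 2 to 5 group means for 5 members, and of none for Plin4, Cdkn1a, Zbtb16 and Hif3a.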
